A study of Homo sapiens with 4 samples.

Results

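The trefoil factor genes TFF3, TFF2 and TFF1 on chromosome 21 and the secreted mucin genes MUC6, MUC2, MUC5AC and MUC5B on chromosome 11 each form a cluster of neighbouring genes. GATA4 occupancy around these 7 genes was examined in PaTu8988S, an established line of human pancreatic adenocarcinoma cells. The intervals described were chosen by position alone, as those overlapping by at least 1 bp a window that runs from 100 kb before each cluster to 100 kb after it. They number 36 (34 around the mucin genes and 2 around the trefoil factor genes) of 21139 on the 22 autosomes and chromosome X.

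The study profiled GATA4, a DNA-binding regulator of gut, pancreas and heart development, by CUT&RUN in 4 libraries of 1 group. Its title ties loss of GATA4 and GATA6 to loss of the classical programme in pancreatic ductal adenocarcinoma. In CUT&RUN an antibody held on chromatin recruits micrococcal nuclease, and the DNA fragments cut loose around the bound protein are sequenced. Each library started from 500000 cells and 10 ug of the anti-GATA4 antibody MAB2606, per the labels, and nothing says whether the libraries came from separate cultures. The deposited data are 1 table of the intervals shared by the 4 libraries, with positions in hg19 and no score, so no value per library, no spread between libraries and no read depth can be given, and no group without the antibody was analysed here.

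Trefoil factors are small secreted peptides, folded around the disulphide-linked trefoil domain, that are released together with mucins and protect and help repair the epithelial surface. Gel-forming mucins are long, heavily glycosylated proteins that link into polymers and make the mucus layer. TFF1 and MUC5AC are typical of the surface mucous cells of the stomach, TFF2 and MUC6 of its mucous neck and gland cells, TFF3 and MUC2 of intestinal goblet cells, and MUC5B of airway and salivary glands. Several of these genes are switched on in pancreatic ductal adenocarcinoma of the classical kind, in which gastric-type secretory genes are prominent.

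An hg19 sequence was not used here, so the bases under the intervals are not printed. Of the 7 genes, MUC2 was matched by symbol in RefSeq's GRCh38.p14 promoter table, and its 250 bases before the gene start are shown because GATA4 belongs to the family of factors that bind GATA. They lie on the plus strand at chr11:1074624-1074873 of GRCh38, positions that are not those of the interval list. The capitals mark the match to GATA, and the bases run 5′ to 3′.
MUC2: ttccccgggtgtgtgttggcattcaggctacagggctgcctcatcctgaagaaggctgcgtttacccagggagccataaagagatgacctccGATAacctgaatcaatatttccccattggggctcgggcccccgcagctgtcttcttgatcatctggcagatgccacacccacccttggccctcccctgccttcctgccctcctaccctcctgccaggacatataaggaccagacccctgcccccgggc

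The letters GATA or, for the other strand, TATC occurred 1 time in this stretch, 155 to 158 bases before the gene start. Of 35116 promoter stretches of the same length in the table, 45.6% held at least 1 such match. The longer forms made of GATA with A or T directly before it and A or G directly after it, which all contain GATA, were absent from both strands, and 22.3% of the promoter stretches held at least 1. A match describes the letters only.

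The mucin genes lay in a stretch rich in GATA4 intervals. The window from 912824 to 1383406 on chromosome 11 (470.6 kb) held 34 intervals, or 72.3 per Mb, against 10.1 per Mb on chromosome 11 and 7.18 per Mb over the list, each rate taken between the first and last interval of a chromosome. The window thus carried 2.50% of the chromosome's 1360 intervals and was 7.16 times as dense as the chromosome. Chromosome 11 was cut end to end into 284 further windows of the same length, which held a median of 2 intervals (quartiles 0 and 6, 95th percentile 17). Only 2 of these 284 windows (0.704%) held at least as many intervals as the mucin window. A total of 72 held none, any without sequence in hg19 included, and 74.6% held at least 1 interval.

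The trefoil factor genes lay among few intervals, as did most of chromosome 21. The window from 43631777 to 43886644 on chromosome 21 (254.9 kb) held 2 intervals, or 7.85 per Mb, against 20.8 per Mb between the first and last interval of chromosome 21 and 7.18 per Mb over the list. It was 0.377 times as dense as the chromosome and 1.09 times as dense as the list. Of 149 further windows of the same length on chromosome 21, 27 (18.1%) held at least 2 intervals, 16 held 1 and 106 held none, so that 28.9% held any. The trefoil window thus held more than the median window of chromosome 21, which was empty, and less than the chromosome's average, which was carried by a few windows: the fullest, from 16562750 to 16817617, held 103. The 2 intervals of the trefoil window were fewer than the 3 intervals at the median of the 43 chromosome 21 windows that held any. Windows without sequence in hg19, if any, were counted among the empty ones.

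**Figure D1:**
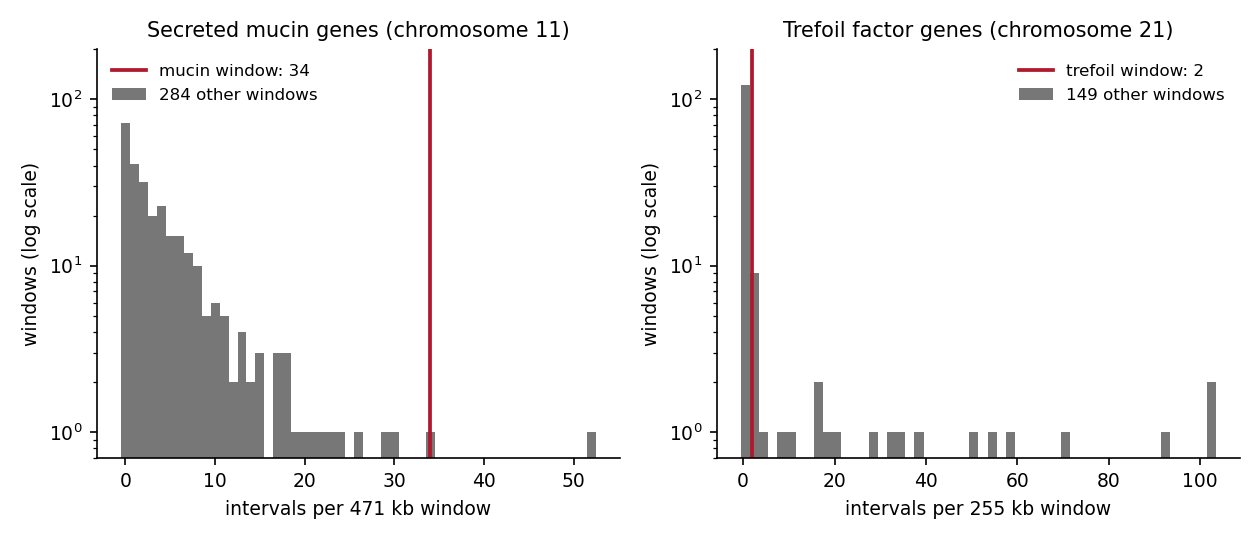
Number of intervals (horizontal axis) in windows as long as the mucin window (left, chromosome 11) and the trefoil window (right, chromosome 21, bars 2 counts wide), with the number of windows on a log scale. Red lines mark the mucin window at 34, with 2 of 284 other windows as high or higher, and the trefoil window at 2, with 27 of 149 as high or higher.

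The 2 trefoil intervals were named in full. The first ran from 43771111 to 43771690 (579 bp), inside the cluster, which extends from 43731777 at the TFF3 end to 43786644 at the TFF1 end. It began 39.3 kb from the TFF3 end and stopped 14.95 kb short of the TFF1 end. RefSeq gives TFF3 a length of 3.74 kb and TFF1 a length of 4.25 kb in GRCh38, so an interval this far from both ends lay outside both outer genes, in the part of the cluster that contains TFF2, the trefoil peptide of gastric mucous neck cells. Whether it touches TFF2 was not determined, because no position of that gene was compared with the list. The TFF genes are transcribed from the minus strand, so the TFF1 end is where TFF1 transcription starts. This interval was the nearest of the list to that start, 14.95 kb from it. That does not assign it to TFF1, because its distance to the start of TFF2 was not measured.

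The second trefoil interval ran from 43879192 to 43879522 (330 bp), 92.5 kb beyond the TFF1 end. In gene order TMPRSS3, a transmembrane serine protease gene, and UBASH3A, a regulator of T cell receptor signalling, follow TFF1, while ABCG1, a cholesterol exporter gene, precedes TFF3. The flank of 100 kb on the ABCG1 side held 0 intervals. To that side the nearest interval of all ended at 43204357, so 566.8 kb without an interval separated it from the one inside the cluster. To the other side the next interval followed 22.9 kb after the second, from 43902386 to 43902816, just outside the window.

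Within the mucin window, intervals were spread over the genes and both flanks. The gene cluster itself, from 1012824 at the MUC6 end to 1283406 at the MUC5B end (270.6 kb), held 22 intervals, or 8.13 per 100 kb. The flank on the MUC6 side held 8 in 100 kb and the flank on the MUC5B side 4, which is 6 per 100 kb over both. The cluster was 1.36 times as dense as its flanks, and 7.91% of it was covered by intervals, against 4.89% of the flanks. Bases without sequence in hg19, if any, were not taken out of these lengths. In gene order AP2A2, which encodes a subunit of the clathrin adaptor complex, precedes MUC6, and TOLLIP, an adaptor of Toll-like receptor signalling, follows MUC5B.

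Both outer mucin genes, taken at their GRCh38 lengths, carried intervals. MUC6, the gastric gland mucin, has a RefSeq length of 23.9 kb in GRCh38, and 2 intervals lay within that distance of its end of the cluster. The nearer ran from 1018758 to 1019929 (1171 bp), and the other, between 1031198 and 1032450, was 1252 bp wide. MUC5B, the airway and salivary mucin, has a length of 39.1 kb, and 5 intervals lay within that distance of its end, with a median width of 852 bp. Among the 10 widest of the window were the interval from 1274794 to 1276437 (1643 bp) and, before it, that of 1165 bp between 1257742 and 1258907. The interval nearest to the MUC5B end ran from 1279835 to 1280687 (852 bp) and stopped 2.72 kb short of it. These stretches held 8.37 and 12.8 intervals per 100 kb, from counts as small as 2 and 5. MUC6 is transcribed from the minus strand and MUC5B from the plus strand, so both ends of the cluster are the far ends of these genes and not their starts.

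Between the outer genes lay 15 intervals in 207.6 kb, or 7.23 per 100 kb, with a median width of 986 bp. The length of the stretch includes any bases without sequence in hg19. This stretch contains MUC2, the goblet cell mucin, and MUC5AC, the mucin of the gastric surface. The widest interval of the whole window was among them, from 1095475 to 1097422 (1947 bp). A further member of the 10 widest ran from 1157174 to 1158573 (1399 bp). Slightly narrower were the interval at 1145062 to 1146352, with 1290 bp, and that at 1218197 to 1219456, with 1259 bp. The cluster measures 270.6 kb in hg19 but 249.4 kb from MUC6 to MUC5B in the GRCh38 table, a difference of 21.2 kb. For that reason MUC2 and MUC5AC were not placed among these intervals, and none of the 15 is assigned to either gene. The trefoil cluster, by contrast, measures 54.9 kb in both builds.

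Outside the gene cluster, the widest intervals lay on the MUC5B side. The wider ran from 1314369 to 1316124 (1755 bp), 31.0 kb beyond the MUC5B end, and the other from 1291195 to 1292693 (1498 bp), 7.79 kb beyond it. Together with 8 intervals inside the cluster they complete the 10 widest, so the flank on the MUC6 side, where widths ran from 369 to 1098 bp, held 0 of the 10.

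**Figure D2:**
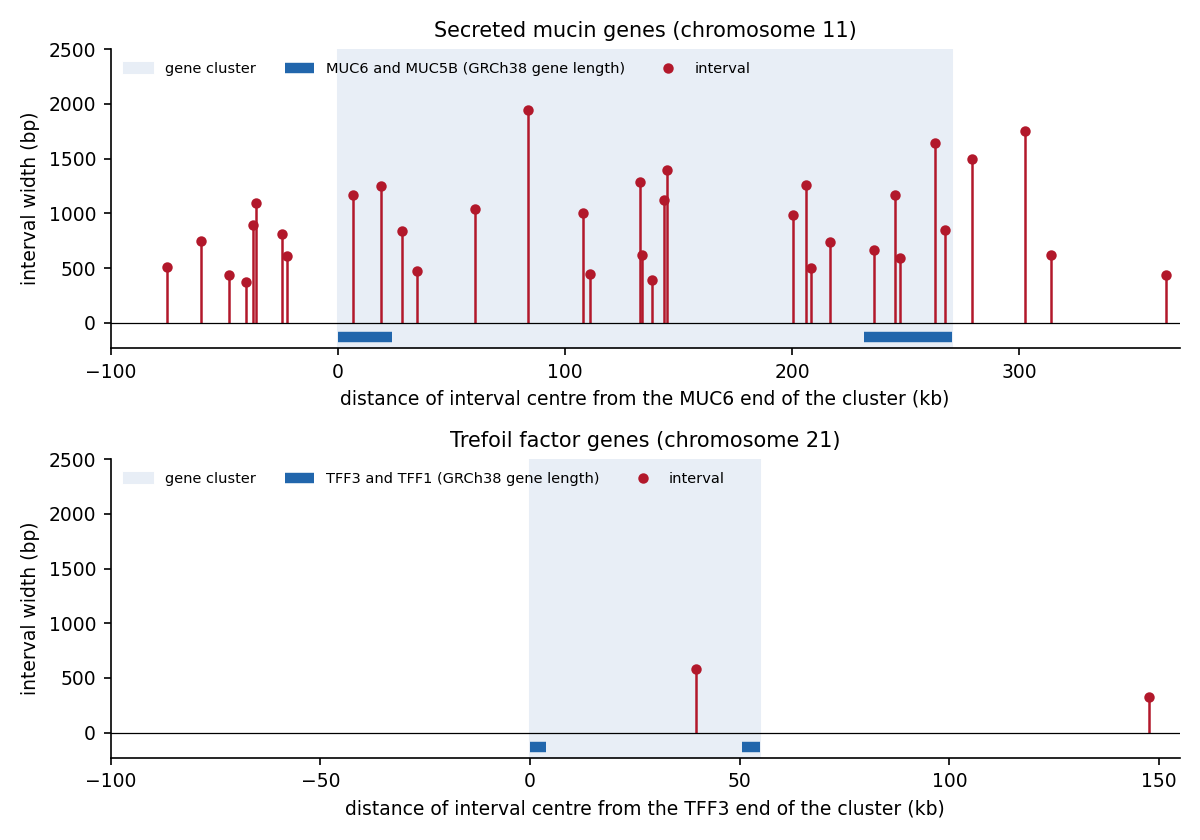
Each red stem is an interval, placed by the distance of its centre from the MUC6 end (top) or the TFF3 end (bottom) of the gene cluster in kb, and its height is the interval's width in bp. The shaded span is the gene cluster and blue bars are the lengths of the outer genes in GRCh38; the mucin window holds 34 intervals up to 1947 bp wide and the trefoil window 2 of 579 and 330 bp.

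Mucin intervals were unevenly spaced. The 33 gaps between neighbours had a median of 8.54 kb, against 27.5 kb between neighbours over chromosome 11, and 12 gaps were 5 kb or shorter. The smallest, 43 bp, parted the interval from 1156012 to 1157131 (1119 bp) from the one that begins at 1157174, a pair named after its values were seen. With intervals no more than 12.5 kb apart linked, the window broke into 12 groups, of which the fullest held 7 intervals between 952291 and 990680 on the MUC6 side and the next 5 between 1145062 and 1158573. Directly after that group came the longest stretch without an interval in the window, 54.2 kb from 1158573 to 1212781. It lay inside the gene cluster, and whether hg19 has sequence throughout it was not checked.

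The intervals around the mucin genes were wider than most of the list. Their median width was 844 bp (quartiles 594 and 1170 bp, range 369 to 1947 bp), while the remaining 1326 intervals of chromosome 11 had a median of 577 bp and the rest of the list 586 bp. A total of 26 of the 34 (76.5%) exceeded the median of the list, and 14 (41.2%) were 1 kb or wider, against 13.9% on the rest of chromosome 11. Inside the gene cluster the median was 994 bp (394 to 1947 bp), and over both flanks it was 680.0 bp (369 to 1755 bp). The ranges of the cluster and the flanks overlapped almost entirely.

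Intervals near the mucin window were also wide. The 147 other intervals within 5 Mb of the mucin window had a median of 739 bp (quartiles 549 and 1088 bp), while the 1179 beyond 5 Mb had a median of 559 bp. The mucin median was 1.14 times that of its surroundings and 1.51 times that of the more distant intervals. Of 39 windows of chromosome 11 with 10 or more intervals, 3 had a median width at least as large as the mucin window, and the medians of all 39 ran from 279 to 1032 bp.

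**Figure D3:**
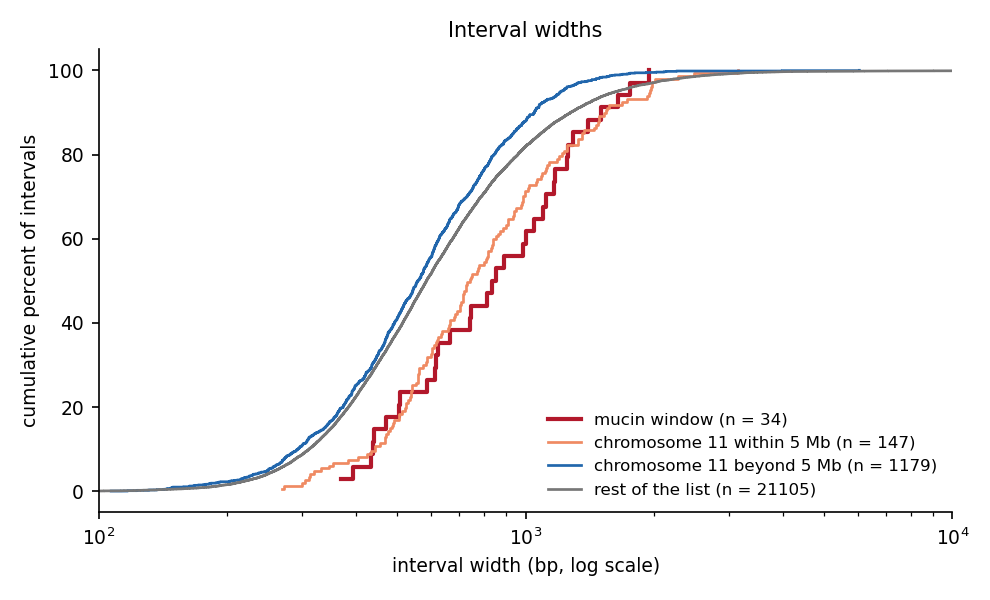
Cumulative percent of intervals (vertical axis) by width in bp on a log scale, for the mucin window (34 intervals, red), other intervals of chromosome 11 within 5 Mb (147) and beyond 5 Mb (1179), and the rest of the list. The mucin curve, with a median of 844 bp, runs close to that of its surroundings (739 bp) and to the right of the more distant intervals (559 bp).

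The mucin window, with a median width of 844 bp, had 6.62% of its length covered by intervals, and the windows that matched it in number held narrower ones. The window from 48556384 to 49026966 held 52 intervals of median width 293 bp, which covered 3.88% of it. That from 50438712 to 50909294 held 34 of median width 348 bp, which covered 2.95%. Of the 284 windows of chromosome 11, 0 (0%) were covered as far as the mucin window. The highest cover among them was 6.11% and the median 0.284%. For the trefoil window the cover was 0.357%, and 26 of the 149 chromosome 21 windows (17.4%) were covered at least as far, up to 36.8%.

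The 2 trefoil intervals were narrow. At 579 and 330 bp both lay below the list's median of 586 bp, and their median of 455 bp was 0.618 times that of the other 800 intervals of chromosome 21 (735 bp). The 18 other intervals within 5 Mb had a median of 429 bp and a range of 184 to 830 bp, which includes both trefoil values. With 2 intervals, no more than these values can be given.

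The dense ground around the mucin genes extended beyond them. Windows of the same length were laid side by side on either side of the mucin window, which held 34 intervals. Towards the chromosome start, the adjoining window held 27 intervals. The one before it held 20, but part of it ran past the chromosome start, so it covered less sequence. Away from it, the next 4 held 14, 33, 22 and 22, and the 2 after these held 3 each. The mucin window was thus the fullest of these first 7 windows, by 1 interval. The whole stretch, bounded after its counts were seen, ran from 86438 to 3265734 and held 172 intervals, or 54.1 per Mb, which is 12.6% of the chromosome's total in 3.18 Mb. The mucin window, at 72.3 per Mb, was 1.42 times as dense as the rest of the stretch (50.9 per Mb) and 7.16 times as dense as the chromosome. In the next 1.88 Mb there were 6 intervals, or 3.19 per Mb.

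No such stretch surrounded the trefoil genes, whose window held 2 intervals. Of the 34 chromosome 21 windows centred within 5 Mb of the cluster, 25 held no interval, 3 (8.82%) held at least 2, and the highest held 5. The adjoining window on the TFF3 side held 0 intervals and the one on the TFF1 side 1. Among windows laid side by side from the trefoil window, the highest counts were 3 each in those 4 and 5 steps beyond the TFF1 end. The 3 fullest windows of chromosome 21 lay far off, between 16307883 and 17072484, and held 92, 103 and 102 intervals.

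**Figure D4:**
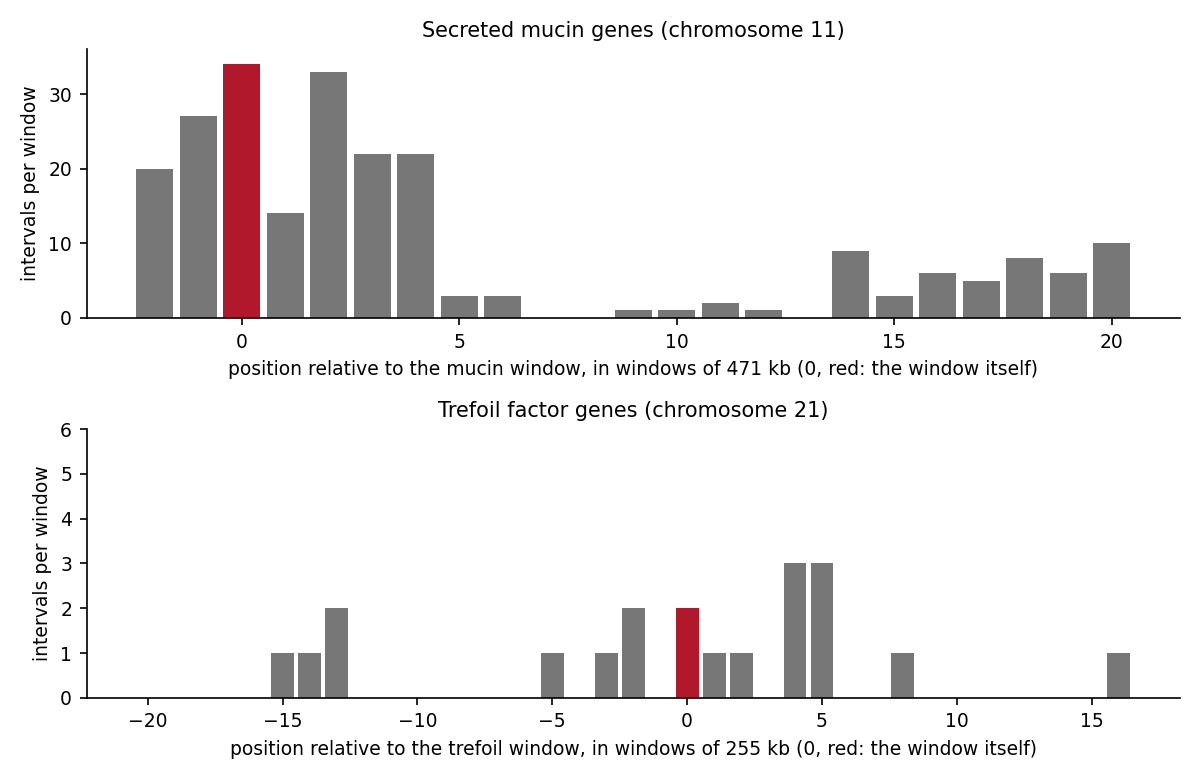
Intervals per window (vertical axis) in windows as long as the mucin window (top) or the trefoil window (bottom), laid side by side along the chromosome, with position 0 in red being the gene window itself. The mucin window (34) stands among windows of 14 to 33 intervals that end 4 steps to the right, and the trefoil window (2) among windows of 0 to 3. The leftmost window in the top panel runs past the chromosome start.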

How the data were processed

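CUT&RUN of GATA4 was done in 4 libraries of PaTu8988S. SEACR, a peak caller for CUT&RUN, HOMER and build hg19 are named in the submitters' processing notes; their versions and settings, like the overlap required of a common peak, are not given in the sources used. The deposited list gives start and end positions in bp, and no other values, for 21308 intervals, pooled by the authors over the libraries, of which 21139 on 23 chromosomes were used. Read depth is unknown.

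The ends of the 2 gene clusters were taken in hg19. Windows added 100 kb on each side. Comparison windows of equal length were laid end to end between the first and last interval of the chromosome, leaving out those touching the gene window. Any stretches without sequence in hg19 were not removed from windows, lengths or rates. Width is end minus start. Whether starts count from 0 or 1 is not stated. Gene lengths, gene order and the MUC2 promoter came from RefSeq tables of GRCh38.p14, whose positions were not compared with the list. Intervals named were all those of a window with 15 or fewer, otherwise the 10 widest and those nearest to the cluster ends. The genes and windows were chosen with earlier results of these data known. Without values per library, ranks and shares of windows are descriptions and no test was made. The planned count of other mucin and gastric genes needs an hg19 annotation and was not run. Tools were Python 3.11.15 with pandas 2.3.3, numpy 2.4.6, matplotlib 3.10.9 and scipy 1.17.1; counting was checked on planted intervals. Alternatives varied the flank, merging, width, overlap and the comparison windows.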

Additional observations from a re-analysis of the deposited data

How the results depend on the processing

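Of 72 recomputed values, 56 kept within the exact 95% binomial interval of a share of windows, or within 1.5 times for widths, cover and distances, and 16 moved further, 12 of them for the trefoil window. The share of windows with at least as many intervals as the trefoil window, 18.1% above, was 29.4% with a flank of 500 kb, 62.8% among windows holding any interval, 8.82% among windows within 5 Mb, and 26.5% over all autosomes and X, a comparison chosen after seeing the data. For cover, the share of windows covered at least as far was 26.5% with 500 kb, 60.5% among windows with any interval and 8.82% within 5 Mb. Trefoil cover was 1.06% with no flank and 0.165% with 500 kb. With only intervals at or above the median width, the trefoil window held 0 intervals and its cover was 0%, so 100% of windows held at least as many and were covered at least as far, by construction. For the mucin window the share was 0% with a flank of 500 kb, after merging intervals within 1 kb, among wider intervals (the list's median or more) and among the 11 windows within 5 Mb. Over all autosomes and X, 1.36% of windows held at least as many. With the libraries pooled, none could be left out. No paired analysis was possible because the list has 1 group and no columns per library. An empty stretch shows only that no common interval was listed there. It may also lack sequence in hg19, which was not checked.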
